A study of Saccharomyces cerevisiae with 21 samples.

Results

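The 10 genes followed here encode regulators that yeast uses when it meets stress or stops growing: the transcription factors MSN2, MSN4, XBP1, GIS1, HSF1, YAP1, SKN7 and HOT1, and the protein kinases RIM15 and HOG1. They are a list of names, drawn up with earlier results of these data known, among the 5656 genes that have a probe set of their own on the array, and each of the 10 is read by 1 probe set that carries no cross-hybridization suffix. The RNA was total RNA of baker's yeast, Saccharomyces cerevisiae, strain BY4743, a diploid in the S288C background that, as general knowledge of the strain, lacks HIS3, LEU2 and URA3, and it was read on Affymetrix YG_S98 arrays. All cells had been raised at 30 °C in YPD (yeast extract, peptone and glucose) until A600 was 0.8, spun down and taken up in YPD diluted 1:20. There were 7 time points with 3 samples each, 21 arrays in all. The control was an aliquot of that diluted suspension taken before drying. The next samples came after 18 h of drying at 22 to 25 °C in 9-cm dishes, which their titles give as 50% dry. The dry samples had been dried for 42 h and then held for 72 h at 20% relative humidity. The last 4 groups were taken 15, 45, 90 and 360 min after diluted YPD was returned to such dried cells, with several plates pooled into a flask. Nothing in the labels says that the 3 samples of a time point are separate cultures, so a p-value here weighs a change against the spread of 3 samples whose differences may be technical only.

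As background, Msn2 and Msn4 are paired zinc-finger activators that bind the stress response element of many genes and are held out of the nucleus while protein kinase A is active. Rim15 is a kinase that is released when nutrient signalling drops, and through the small proteins Igo1 and Igo2 it acts on Gis1, Msn2 and Msn4 during entry into quiescence, while Xbp1 is a repressor of cyclin and growth genes that accumulates in non-dividing cells. Hsf1 drives chaperone genes, Yap1 and Skn7 drive genes of oxidant defence, and the kinase Hog1 with its nuclear partner Hot1 drives glycerol production in the response to high osmolarity. Most of these proteins are switched by phosphorylation, by oxidation or by movement into the nucleus, none of which an array of transcripts measures.

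Signals are given in the linear units of the deposited table, in which every array has the same average (2% trimmed means of 500.2 to 500.6), and a signal of 29.6 was taken as background. Changes are log2 ± SE from one limma fit over all 21 arrays, and a gene is said to have risen or fallen where its Benjamini-Hochberg adjusted p over 9275 probe sets was under 0.05. Because the arrays share 1 mean signal and the RNA is from bulk samples, each change is relative to the rest of the array, and fewer cells and less RNA per cell cannot be told apart. The median log2 change of all probe sets at 360 min against dry was -0.29 in the deposited scale and -2.30 when arrays were scaled on 9 spike-in probe sets, and against control it was -0.01 and -2.33, so directions after rewetting are relative ones. Ratios of a 3′ to a 5′ probe set, a measure of RNA integrity, moved with the time course too, as mean log2 values. That of ACT1 went from -0.313 in the control to 0.61 at 18 h, 1.047 in the dry state and 2.427 at 90 min, that of SRB4 from 0.818 to 1.789, 1.715 and 2.456, and that of SPT15 from 1.658 to 1.803, down to 1.267 in the dry state and up to 2.657; their part in the results was not tested. Arrays were scanned on 4 days, with the control and 18 h replicate 2 on day 1, the other 18 h arrays and all dry, 15 min and 45 min arrays on day 2, 90 min replicates 1 and 3 with all 360 min arrays on day 3, and 90 min replicate 2 on day 4. The diploid label was set against 7 haploid and mating genes, known as shut off in a/alpha diploids, and the outcome was mixed. BAR1 and HO were at or below background on all 3 arrays of every time point, while 2 to 3 of the 7 were above it on all 3 arrays of each. MFA2 had mean signals of 113.6 to 262.3 at the 7 time points, MF(ALPHA)1 read 98.9 ± 7.46 and STE3 51.6 ± 10.97 in the control, and MFA1 reached 185.9 ± 53.49 in the dry state. The 7 together summed to signals between 255.6 and 558.6.

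All 10 regulators differed among the 7 time points by limma's moderated F test, as did 84.2% of all probe sets, with adjusted p between 5.54e-14 for XBP1 and 1.05e-05 for GIS1. After 18 h of drying 7 of the 10 had risen and 2, MSN4 and HOG1, had fallen, against 36.2% of all probe sets called higher and 27.3% lower. From 18 h to the dry state 5 rose and 1 fell (background 22.1% higher, 17% lower). In the first 15 min of rehydration 2 rose and 4 fell (12.8% and 27.5%). Between 15 and 45 min none of the 10 passed limma's adjusted threshold, and 1 of them, HOG1, had an unadjusted p under 0.05; 0.27% of all probe sets were called higher and 0.151% lower. SKN7 was the single one of the 10 that fell between 45 and 90 min, when 2.17% of all probe sets were called higher and 3.31% lower. Between 90 and 360 min 5 fell and 1, HOG1, rose (15.4% higher, 22% lower). The 2 groups of arrays did not overlap for 9 of the 10 at 18 h against control, when this held for 73.7% of all probe sets. The count was 7 from 18 h to dry (background 52.9%), 7 at 15 min against dry (51.1%), 3 at 45 against 15 min (18.1%), 4 at 90 against 45 min (23.5%) and 6 at 360 against 90 min (45.2%). Across the cycle it was 10 for dry against control (75.7%), 9 at 360 min against dry (68.3%) and 8 at 360 min against control (76%).

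Across the whole cycle, 8 of the 10 were higher in the dry state than in the control and MSN4 and HOG1 were lower, against 40.1% of all probe sets called higher and 27.2% lower. The median log2 change of the 10 was 1.48, beside 0.24 for all probe sets. At 360 min against dry 8 fell, none rose and HSF1 and HOG1 did not pass (background 21.2% higher, 40.7% lower), with a median of -1.08 beside -0.29. Of those 2, HOG1 was called higher under quantile normalization (0.50) and median centring (0.57) and HSF1 with median centring (0.71), and both were lower under spike-in scaling. The falls of MSN4 and RIM15 from dry to 360 min (-0.76 ± 0.14 and -0.61 ± 0.10) were -0.23 and -0.23 under quantile normalization and -0.24 and -0.09 with median centring, and lost their calls under both. At 360 min against control 5 were higher, 3 were lower and MSN2 and GIS1 did not pass (33.7% and 36.4%). Those 3 comparisons share the control, dry or 360 min arrays with each other, so their counts are not independent. The size of the excursion differed among the genes: the highest time point mean was 12.1 times the lowest for XBP1, 8.17 times for MSN4, 6.41 for YAP1, 5.98 for HSF1, 5.62 for HOG1, 4.17 for HOT1, 3.97 for RIM15, 3.73 for SKN7, 2.79 for GIS1 and 2.62 for MSN2.

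**Figure D1:**
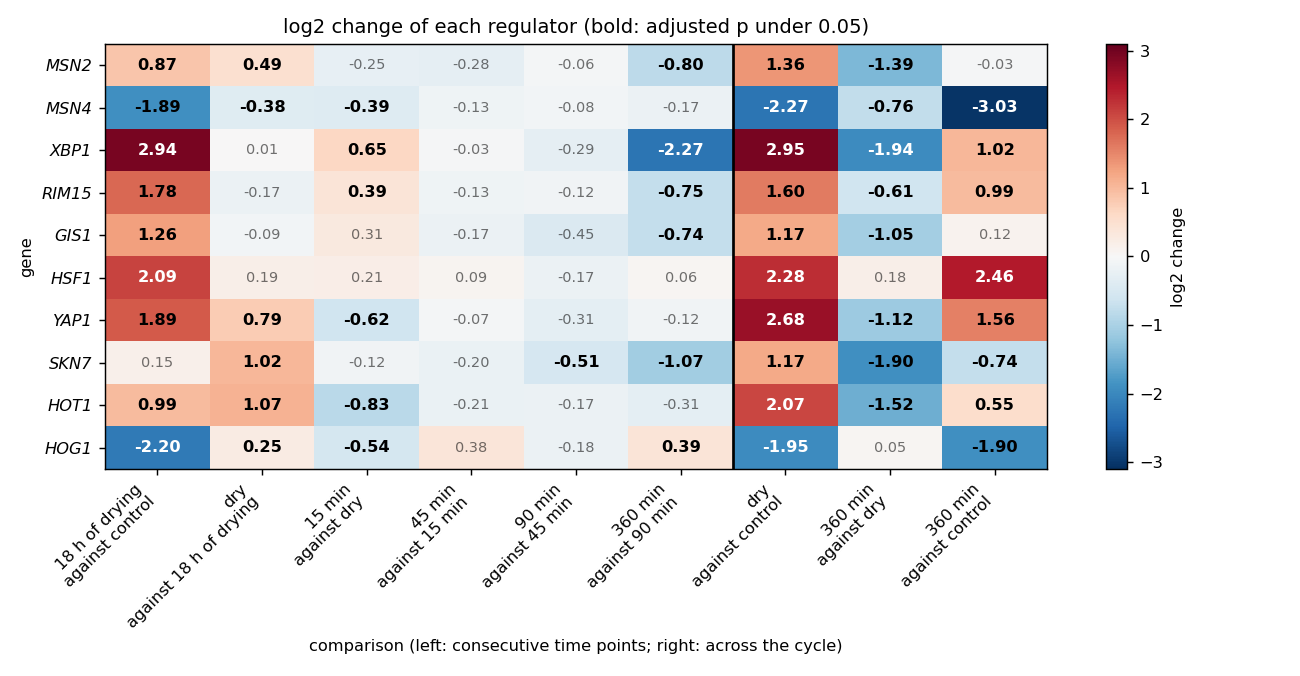
Log2 change of each of the 10 regulators in 9 comparisons, 6 between consecutive time points on the left and 3 across the cycle on the right; bold values have a limma adjusted p under 0.05. MSN4 and HOG1 alone are blue in the first column, the 45 against 15 min column has no bold value, and under spike-in scaling the bold values that turn sign are those of XBP1 and RIM15 at 15 min against dry, of HOG1 at 360 against 90 min, and of XBP1, RIM15, YAP1 and HOT1 at 360 min against control.

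MSN2 encodes the member of the Msn2/Msn4 pair whose transcript is known as the steadier of the 2 in growing cells. Its signal rose on drying, was highest in the dry state and, in the deposited scale, was back near the control by 360 min. Control arrays read 685, 739.7 and 703, those at 18 h 1279, 1385 and 1229.8, and the dry arrays 1936, 1896 and 1653. All 3 dry arrays were above all 18 h arrays, and these were above all control arrays. The rises were 0.87 ± 0.14 (adjusted p = 4.57e-05) and 0.49 ± 0.14 (0.0109). During rehydration the arrays read 1724, 1389 and 1490.5 at 15 min, 1101, 1161 and 1560.1 at 45 min and 982, 1412 and 1263 at 90 min. These 3 groups overlap with one another, and the 15 min arrays with the dry ones. At 360 min the signals were 744, 668 and 674, a fall of 0.80 ± 0.14 from 90 min (adjusted p = 0.000337), and they overlap with the control (-0.03 ± 0.14, adjusted p = 0.868) in the deposited scale. The change from control to 360 min was 0.34 under quantile normalization and -2.35 under spike-in scaling, and passed under both. The rise from 18 h to dry no longer passed when arrays were centred on their medians (0.32).

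MSN4, whose transcript is known as stress-inducible in growing cultures, ran the other way. It was highest in the control, with signals of 1284, 1261 and 1266. At 18 h it read 369, 379 and 289.9, in the dry state 284, 248 and 258, and at 15 min of rehydration 215, 164 and 232. Each of these groups lies wholly below the one before it. The falls were -1.89 ± 0.14 at 18 h (adjusted p = 3.65e-09), -0.38 ± 0.14 in the dry state (0.0357) and -0.39 ± 0.14 at 15 min (0.0347). Of these, the first kept its call under every setting run, while the other 2 did not: with only the 2 groups compared in the fit neither passed, the second was lost without 18 h replicate 1 or 2 or dry replicate 2 or 3, and the third without dry replicate 1 or 3 or 15 min replicate 2. The second was also lost under spike-in scaling and with scan day as a block (-0.31), and the third under quantile normalization and median centring. Later arrays read 205, 175 and 174 at 45 min, 184, 189 and 152 at 90 min and 139, 169 and 159.6 at 360 min, and neighbouring groups among these overlap. At 360 min MSN4 was still -3.03 ± 0.14 against control (adjusted p = 7.22e-12), with no array near the control's.

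On the same array, the log2 signal of MSN2 minus that of MSN4 was -0.84 ± 0.07 (SD, n = 3) in the control, 1.92 ± 0.15 at 18 h, 2.79 ± 0.13 in the dry state and 2.16 ± 0.23 at 360 min. Only how this difference moves can be read, because signals of 2 probe sets are not on one scale. It moved over the time points by a permutation test of the F ratio with 100000 resamples (p = 1e-05, the smallest they can give, and 1.2e-05 adjusted over the 5 pairs tested). Being a difference within an array, it is not touched by multiplying a whole array by a factor, but quantile normalization can move it; with that normalization the 4 pairs that passed here still passed.

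**Figure D2:**
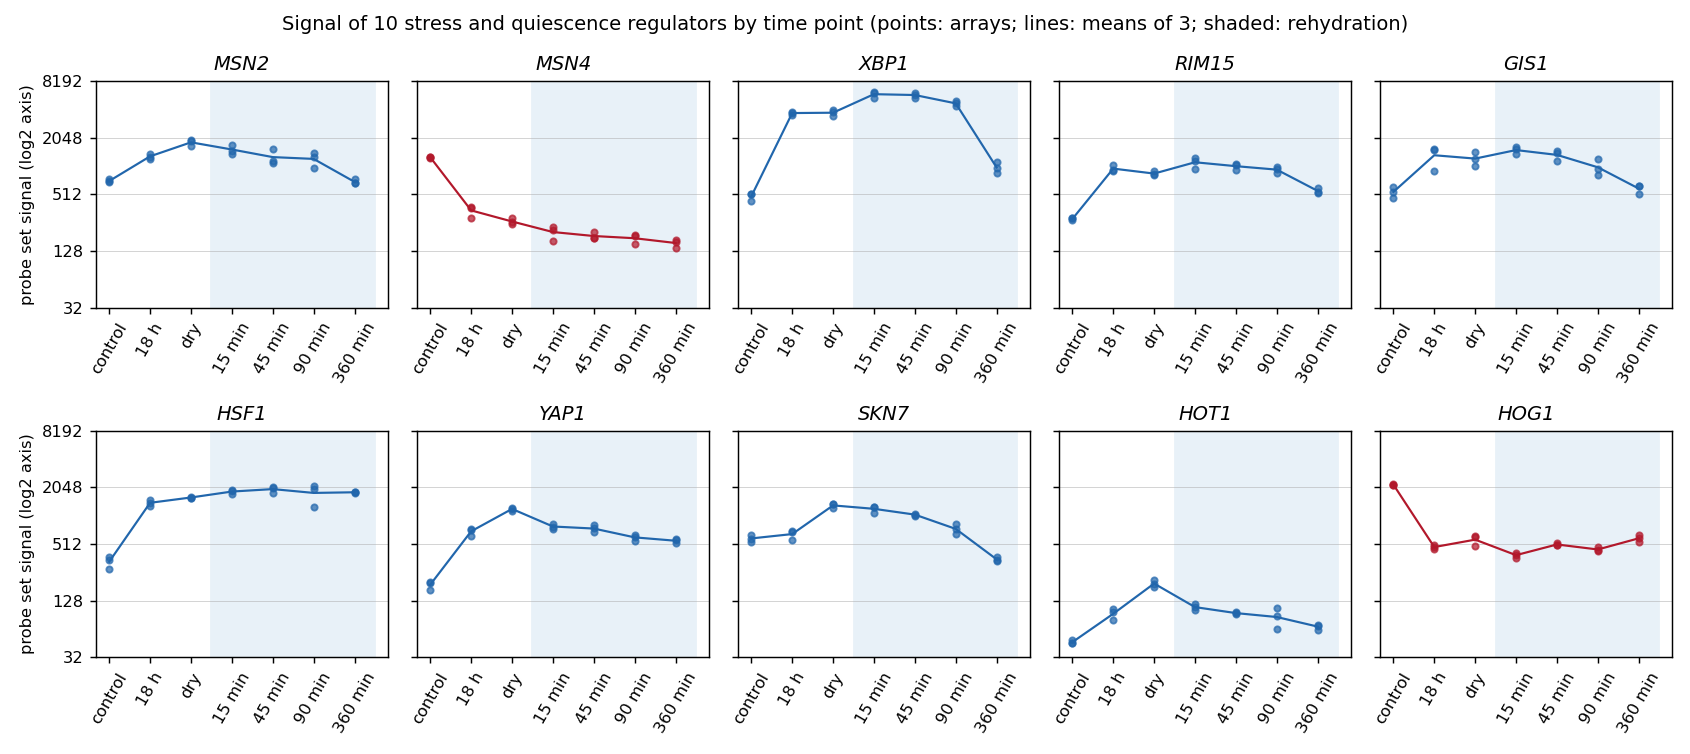
Probe set signal (log2 axis, units of the deposited table) of the 10 regulators at the 7 time points; points are arrays, lines join the means of 3, and the shaded part is rehydration. MSN4 and HOG1, in red, are highest in the control, and XBP1 reads between 3516 and 6259 on every array from 18 h to 90 min and between 863 and 1121 at 360 min.

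XBP1 encodes a repressor that is related by its DNA-binding domain to the cell cycle factors Swi4 and Mbp1. It had the widest excursion of the 10. Control arrays read 513, 510.5 and 439 and those at 18 h 3786, 3568 and 3871, a rise of 2.94 ± 0.10 (adjusted p = 3.69e-13). Dry arrays, at 3999, 3807 and 3516, overlap with the 18 h arrays (0.01 ± 0.10, adjusted p = 0.962). After rewetting the signal rose again, by 0.65 ± 0.10 at 15 min (adjusted p = 0.000116), to 6142, 5419 and 6259, although under spike-in scaling this step was -0.07. It then read 5441, 6172 and 5836 at 45 min and 4998, 4758 and 4473 at 90 min. The 45 min arrays overlap with those at 15 min, and the 90 min arrays lie below both but the step did not pass (-0.29 ± 0.10, adjusted p = 0.103). At 360 min the arrays read 1121, 863 and 982, having dropped by 2.27 ± 0.10 on the log2 scale since 90 min (adjusted p = 1.89e-09). That is above every control array by 1.02 ± 0.10 (adjusted p = 1.44e-07) in the deposited scale and -1.30 under spike-in scaling. XBP1 thus had the order 15 min, 45 min, 90 min, dry, 18 h, 360 min and control, in which 15 and 45 min overlap, as do dry and 18 h.

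The difference MSN4 minus XBP1 within an array went from 1.39 ± 0.12 (SD, n = 3) in the control to -4.98 ± 0.22 at 45 min and -2.66 ± 0.33 at 360 min, and moved over time by the same permutation test (p = 1e-05, adjusted 1.2e-05).

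RIM15, the kinase that promotes entry into stationary phase, read 285, 270.3 and 285 in the control. At 18 h it read 900.0, 1056 and 927, a rise of 1.78 ± 0.10 (adjusted p = 2.22e-10) with no overlap. Dry arrays, at 841, 899 and 814, lay just below those of 18 h, a step that did not pass (-0.17 ± 0.10, adjusted p = 0.21). At 15 min of rehydration RIM15 rose by 0.39 ± 0.10 (adjusted p = 0.00669) to 955, 1258 and 1156. This step was -0.33 under spike-in scaling, and it did not pass when only the dry and 15 min arrays were in the fit. Signals were 1077, 1063 and 922 at 45 min and 1001, 941 and 870.4 at 90 min, overlapping from one group to the next. They fell by 0.75 ± 0.10 to 592, 533 and 547 at 360 min (adjusted p = 3.45e-05). This last level was 0.99 ± 0.10 above the control (adjusted p = 2.31e-07), or -1.33 under spike-in scaling.

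GIS1 encodes a zinc-finger protein that binds the post-diauxic shift element and acts downstream of Rim15. Its arrays scattered most among the 10, with an SE of 0.21. Control arrays read 612, 468 and 549, 18 h arrays 1571, 900.2 and 1529 and dry arrays 1215, 1024 and 1445. Both dried groups lie above the control and overlap with each other. The rise at 18 h was 1.26 ± 0.21 (adjusted p = 4.7e-05), and 0.74 with scan day as a block, since the low 18 h array is the one scanned with the controls; without that array it was 1.52. Against control the dry state was 1.17 ± 0.21 (adjusted p = 8.84e-05), and 0.39 and no longer called with scan day as a block. Rehydrated arrays read 1536, 1363 and 1641 at 15 min, 1463, 1404 and 1166 at 45 min and 822, 1215 and 942 at 90 min, each group overlapping with the next. The step from dry to 15 min, which did not pass, was 0.69 and called with median centring and -0.41 under spike-in scaling. At 360 min they read 517, 627 and 628, a fall of 0.74 ± 0.21 from 90 min (adjusted p = 0.00996). This step was -0.58 and lost its call with scan day as a block, and likewise without 90 min replicate 2. That array is the only one of its scan day, so the block takes it out of the estimate, and these are not separate checks. GIS1 at 360 min overlaps with the control (0.12 ± 0.21, adjusted p = 0.613; -2.19 under spike-in scaling).

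RIM15 minus GIS1 was -0.95 ± 0.16 in the control and between -0.52 and -0.07 at the other 6 time points (mean of 3 arrays). The permutation test did not pass the threshold (p = 0.069, adjusted 0.069), and its adjusted p was 0.0065 without 18 h replicate 2, with a range of 0.0065 to 0.19 over the settings run. A p that misses the threshold does not show that RIM15 and GIS1 run alike.

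HSF1, which encodes the essential activator of chaperone genes, rose on drying and did not come back. In the control it read 276, 374 and 347 and at 18 h 1394, 1306 and 1515, a rise of 2.09 ± 0.15 (adjusted p = 4.17e-09). From there its groups stayed within a narrow band, at 1633, 1569 and 1598 in the dry state, 1761, 1934 and 1854 at 15 min and 2038, 2059 and 1797 at 45 min. The 90 min arrays read 2139.6, 1265 and 1962, with replicate 2 below every other array of the dried and rehydrated groups. At 360 min they read 1814, 1839 and 1800.0. None of the 5 steps after 18 h passed the test, with changes between -0.17 and 0.21, although the one from dry to 15 min was 0.59 and called with median centring. At 360 min HSF1 was 2.46 ± 0.15 above the control (adjusted p = 3.73e-10) and 0.18 ± 0.15 against dry (adjusted p = 0.315). Under spike-in scaling these were 0.15, no longer called, and -1.82.

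YAP1, the activator of oxidant defence genes that is trapped in the nucleus when its cysteines are oxidized, read 199.8, 168 and 200.5 in the control. It rose by 1.89 ± 0.10 to 727, 628 and 744 at 18 h (adjusted p = 4.89e-11) and by 0.79 ± 0.10 more to 1251, 1156 and 1221 in the dry state (8.87e-06). The dry arrays are the highest of the 21, with no overlap. At 15 min YAP1 had fallen by 0.62 ± 0.10 (adjusted p = 0.000121) to 738, 839.6 and 782, a step that was -0.24 and not called with median centring. Signals were 683, 752 and 809.6 at 45 min, 638, 616 and 555 at 90 min and 528, 577 and 561 at 360 min. The 45 and 90 min arrays do not overlap but that step did not pass (-0.31 ± 0.10, adjusted p = 0.0729), and 90 and 360 min overlap. YAP1 at 360 min was 1.56 ± 0.10 above the control (adjusted p = 3.8e-10), or -0.76 under spike-in scaling.

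SKN7, a response regulator that takes phosphate from the Sln1 and Ypd1 relay and shares oxidative stress genes with Yap1, was later. At 18 h its arrays, 566, 696 and 699, overlap with the control's 645, 542 and 575, and the change did not pass (0.15 ± 0.11, adjusted p = 0.238). In the dry state it read 1360.2, 1354 and 1241, a rise of 1.02 ± 0.11 from 18 h (adjusted p = 1.93e-06) with no overlap. It is the only one of the 10 that passed in that step and not in the one before. During rehydration the arrays read 1086, 1269 and 1282 at 15 min and 1055, 1024 and 1078 at 45 min, with -0.12 ± 0.11 and -0.20 ± 0.11 for these steps, neither of which passed. SKN7 then fell by 0.51 ± 0.11 (adjusted p = 0.0128) to 832, 658 and 735 at 90 min, a call that was lost with only those 2 groups in the fit. It fell by a further 1.07 ± 0.11 (adjusted p = 1.66e-06) to 348, 337 and 371 at 360 min. These last arrays are below every control array, by 0.74 ± 0.11 (adjusted p = 1.15e-05).

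YAP1 minus SKN7 moved over the time points (permutation test, p = 1e-05, adjusted 1.2e-05). It was -1.63 ± 0.10 (SD, n = 3) in the control, 0.10 ± 0.26 at 18 h, -0.62 ± 0.08 at 15 min of rehydration and 0.66 ± 0.10 at 360 min.

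HOG1, the kinase of the osmotic response, had its highest signals in the control, 2176, 2175 and 2226. After 18 h it read 458, 496 and 474, a fall of 2.20 ± 0.09 on the log2 scale (adjusted p = 2.16e-12), and the value was -2.14 with scan day as a block. Dry arrays read 492, 601 and 618. They overlap with those of 18 h, the rise being 0.25 ± 0.09 (adjusted p = 0.0306), and this call was lost under quantile normalization, median centring and spike-in scaling, with only the 2 groups in the fit, and without 18 h replicate 1 or 3 or dry replicate 2 or 3. At 15 min HOG1 read 366, 396 and 408, its lowest group, after a fall of 0.54 ± 0.09 (adjusted p = 0.000174) that was -0.16 and not called with median centring. Signals at 45 min were 497, 504 and 519.6, all above those at 15 min, with a change of 0.38 ± 0.09 that did not pass (adjusted p = 0.0814). At 90 min they were 477, 438 and 430.2, and at 360 min 545, 588 and 635. The last step was a rise of 0.39 ± 0.09 (adjusted p = 0.00228), or -0.57 under spike-in scaling. Its call was lost with scan day as a block, in a fit of the 90 and 360 min arrays alone. It was kept with any 1 array left out (0.34 to 0.45). Against control the 360 min level was -1.90 ± 0.09 (adjusted p = 9.58e-12).

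HOT1, the DNA-binding partner that Hog1 phosphorylates, read above the background of 29.6 on all 21 arrays, with control signals of 45.6, 48.6 and 45.1. It rose by 0.99 ± 0.14 to 96.4, 103 and 79.2 at 18 h (adjusted p = 1.21e-05), and by 1.07 ± 0.14 to 181, 194 and 210.0 in the dry state (1.93e-05). Over the settings run these rises ranged from 0.56 to 1.15 and from 0.78 to 1.15. No array of the other 18 reached the dry ones. Within 15 min it had fallen by 0.83 ± 0.14 (adjusted p = 0.000265), to 108, 117 and 103. The later arrays read 96.7, 94.2 and 92.8 at 45 min, 87.5, 106 and 64.2 at 90 min and 62.7, 71.5 and 69.7 at 360 min, and none of the 3 later steps passed. At 360 min HOT1 was above all control arrays by 0.55 ± 0.14 (adjusted p = 0.00262), or -1.77 under spike-in scaling. HOG1 minus HOT1 moved from 5.56 ± 0.07 (SD, n = 3) in the control to 1.54 ± 0.10 in the dry state and 3.12 ± 0.07 at 360 min (permutation test, p = 1e-05, adjusted 1.2e-05).

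**Figure D3:**
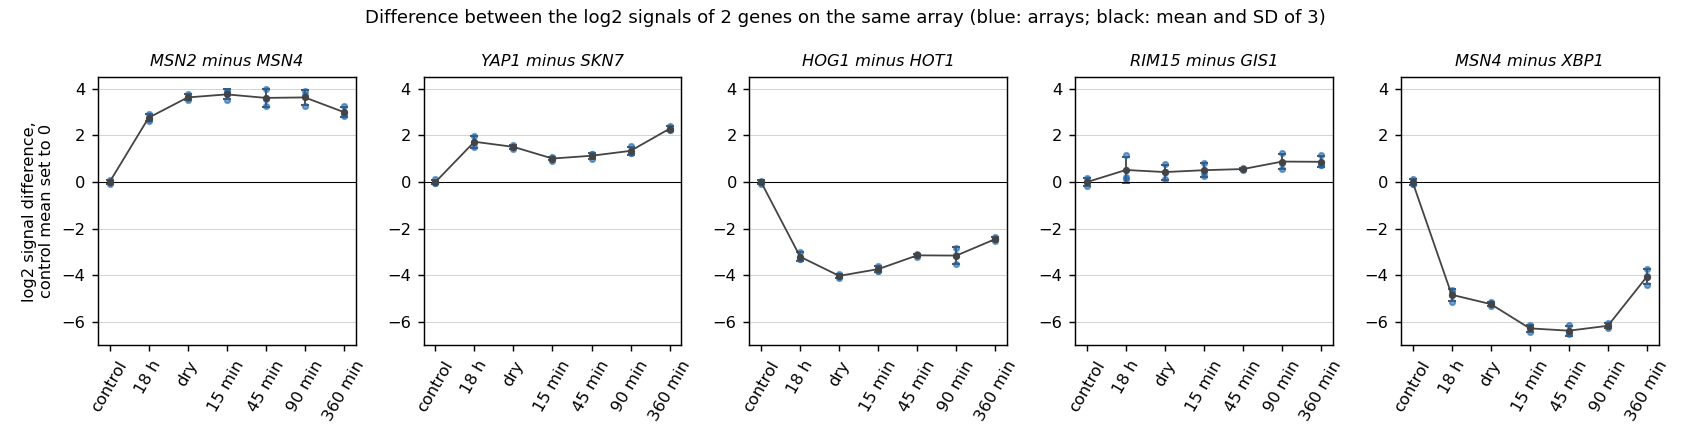
Difference between the log2 signals of 2 regulators on the same array, with the control mean set to 0; blue points are arrays, black points and bars the mean and SD of 3. Of the 5 differences, RIM15 minus GIS1 moves least and MSN4 minus XBP1 moves farthest from the control.

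The genes above and around these regulators were counted in 4 lists taken from textbook pathways. The shares of all probe sets to read these counts against were 36.2% higher and 27.3% lower at 18 h against control, 22.1% and 17% from 18 h to dry, and 21.2% and 40.7% from dry to 360 min. Of 16 measured nutrient signalling genes, 11 rose (68.8%) and 2 fell (12.5%) at 18 h, with a median log2 change of 0.97 beside 0.11 for all probe sets. The protein kinase SCH9, which restrains Rim15, went from 405 ± 47.2 to 2710.4 ± 219.9 (2.75 ± 0.22, adjusted p = 1.23e-08). IRA2, which turns Ras off, rose by 1.79 ± 0.13, PHO80, the cyclin of the phosphate-sensing kinase Pho85, by 1.85 ± 0.15, and the glucose receptor GPR1 by 1.34 ± 0.11. RAS1 and RAS2 were the 2 that fell, by 0.37 ± 0.15 and 0.35 ± 0.11, and neither passed under quantile normalization. In the dry state against 18 h only 1 rose, PDE1, and 3 fell, PDE2, RAS1 and PHO80; PDE1 and PDE2 both break down cyclic AMP, and their changes were 0.82 ± 0.11 and -0.63 ± 0.08. By 360 min 2 had risen (12.5%) and 10 had fallen (62.5%) from the dry state.

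Of the 16 partners and effectors of Msn2/Msn4, Rim15 and Yap1, 7 rose and 3 fell at 18 h (3 and 4 under spike-in scaling). Those shares, 43.8% and 18.8%, are near the 36.2% and 27.3% of all probe sets, and the median was 0.34 beside 0.11. The smallest adjusted p was that of IGO2, a substrate of Rim15 that inhibits protein phosphatase 2A, which rose from 350.5 ± 27.2 to 3384 ± 213 (3.27 ± 0.15, adjusted p = 1.58e-11). IGO2 was still 2.24 ± 0.15 above the control at 360 min in the deposited scale, while under spike-in scaling none of the list was called higher than the control then. Its relative IGO1 rose in the dry state (0.94 ± 0.09), and read 4782 ± 158 at 360 min against 1638 ± 44.9 in the control. CDC55 and PPH21, a regulatory and a catalytic subunit of protein phosphatase 2A, rose by 1.22 ± 0.15 and 0.60 ± 0.08 at 18 h. BMH1, a 14-3-3 protein known to bind phosphorylated Msn2, Msn4 and Rim15, fell by 0.99 ± 0.11. BMH2, also in this list, rose from 2332 ± 138 to 3312 ± 77.7 at 18 h.

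Of 24 other components of the HOG pathway, 13 rose and 7 fell at 18 h in the deposited scale, and 8 and 9 under spike-in scaling. The first 2 counts are 54.2% and 29.2% of the list, the latter near the 27.3% of all probe sets. OPY2, a membrane anchor of the Sho1 branch, rose from 267 ± 4.90 to 1254 ± 100.3 (2.23 ± 0.14, adjusted p = 5.14e-10), HKR1, a mucin-like sensor, rose by 1.19 ± 0.09, and PTP2, a tyrosine phosphatase that acts on Hog1, by 1.57 ± 0.16. PTC2, a serine/threonine phosphatase, went the other way, from 2084 ± 51.9 in the control to 719 ± 118 at 18 h and 347 ± 1.80 in the dry state. RCK2, a kinase that Hog1 phosphorylates, was among the 7 that fell at 18 h. It rose by 0.69 ± 0.11 from there to the dry state, in which it was not called against control. Within 15 min of rewetting it fell by 0.73 ± 0.11. From dry to 360 min 2 of the 24 rose (8.33%) and 16 fell (66.7%), with a median of -0.52 beside -0.29.

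Of 18 related transcription factors, 9 rose (50%) and 6 fell (33.3%) at 18 h (7 and 6 under spike-in scaling), against 36.2% and 27.3% of all probe sets, with a median of 0.42 beside 0.11. RPH1, the paralog of GIS1, rose in both drying steps, from 176 ± 6.45 to 608 ± 37.0 and then 1279.5 ± 47.3 (1.79 ± 0.09 and 1.07 ± 0.09). GIS1 did not pass in the second of these steps; the difference between the 2 genes was not tested. SFL1, a repressor with an Hsf1-like DNA-binding domain, rose by 1.72 ± 0.11 at 18 h and had fallen below the control by 360 min, at 140.4 ± 21.5 against 217 ± 11.1. MGA1, which has a DNA-binding domain of the same family, fell from 735 ± 15.1 to 99.2 ± 7.87 at 18 h (-2.89 ± 0.13, adjusted p = 1.14e-11). SWI4, a G1 cell cycle factor, rose from 37.9 ± 1.01 to 157 ± 35.5.

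Genes known as targets of each regulator were counted next, as transcripts, without a measure of binding. Of 18 Msn2/Msn4 targets, 10 rose (55.6%, background 36.2%) and 3 fell (16.7%, background 27.3%) at 18 h (9 and 4 under spike-in scaling), with a median of 0.96 beside 0.11. RTN2, a reticulon-like protein, went from 122 ± 10.5 to 3279.5 ± 506 (4.75 ± 0.13, adjusted p = 2.57e-14). OM45, of the mitochondrial outer membrane, rose by 3.76 ± 0.14, ALD3, an aldehyde dehydrogenase, by 3.22 ± 0.14 and DCS2, a stress-induced regulator of decapping, by 1.78 ± 0.08. From 18 h to dry 3 rose and 4 fell, among them the hexokinase gene HXK1, from 3802 ± 163 to 1657 ± 30.1, and GPH1, glycogen phosphorylase, which fell by 1.91 ± 0.16, while PNC1, a nicotinamidase, rose by 0.75 ± 0.08. From dry to 360 min 5 rose and 12 fell (27.8% and 66.7%, background 21.2% and 40.7%), and 1 and 15 under spike-in scaling. ALD3 and OM45 were still 3.55 ± 0.14 and 2.86 ± 0.14 above the control at that time in the deposited scale. In that comparison the median of all probe sets was -0.01, and -2.33 under spike-in scaling.

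Of 7 Gis1 and post-diauxic shift genes, 4 rose and 1 fell at 18 h (57.1% and 14.3%, against 36.2% and 27.3% of all probe sets). SSA3, an Hsp70 chaperone, was near background in the control, with arrays between 27.7 and 31.1, and rose to 5246 ± 548 at 18 h (adjusted p = 4.77e-17); with the control at background, no size is given for this change. It was still at 3732 ± 416 at 360 min. GRE1, a hydrophilin, went from 32.2 ± 6.15 to 5156 ± 866, and the small heat shock protein gene HSP26 rose by 3.82 ± 0.09. HSP30 rose from 1267 ± 74.0 to 3096 ± 280 at 18 h, and read 972 ± 54.0 in the dry state and 239 ± 8.60 at 360 min. DPP1 was the 1 that fell at 18 h, from 1154.5 ± 18.4 to 417.4 ± 6.39. In the dry state against control the list's median was -0.25 beside 0.24. Of its members 3 were higher and 2, DPP1 and HSP30, were lower, and these shares, 42.9% and 28.6%, are near the 40.1% and 27.2% of all probe sets.

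Of 22 Hsf1 targets, 9 rose and 7 fell at 18 h in the deposited scale, 6 and 8 with median centring, and 4 and 8 under spike-in scaling, while HSF1 itself rose under each. In the deposited scale these are 40.9% and 31.8% of the list, near the 36.2% and 27.3% of all probe sets, so the list did not stand out in its counts. BTN2, a sorting factor for misfolded proteins, rose by 1.66 ± 0.12. The 3 others with the smallest adjusted p fell: the Hsp70 gene SSA2 from 3819.8 ± 62.6 to 634 ± 103, its co-chaperone YDJ1 from 3099.6 ± 125 to 1016 ± 55.3, and the mitochondrial chaperonin subunit HSP10 from 2516 ± 160.0 to 420.2 ± 32.5. In the dry state against 18 h 6 rose and 1 fell (27.3% and 4.55%, background 22.1% and 17%), and 5 and 5 with median centring. The changes were 1.23 ± 0.18 for the Hsp40 gene SIS1 and 0.89 ± 0.11 for the mitochondrial disaggregase HSP78. At 360 min against control 4 were higher and 13 lower (18.2% and 59.1%, background 33.7% and 36.4%), YDJ1 among the latter by 2.29 ± 0.11. HSF1 was higher by 2.46 ± 0.15 in the deposited scale, and by 0.15, no longer called, under spike-in scaling. The probe set of SSA1 carries a cross-hybridization suffix and is listed at about 0 in the control and dry arrays, so it was counted but not read.

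Of 17 Yap1 and Skn7 targets, 6 rose and 5 fell at 18 h, with a median of 0.02 beside 0.11. Those shares, 35.3% and 29.4%, are about those of all probe sets, 36.2% and 27.3%. CTA1, the peroxisomal catalase, which is also known to be repressed by glucose, went from 52.1 ± 6.69 to 6291 ± 308 (6.92 ± 0.10, adjusted p = 1.03e-17), and GTT2, a glutathione transferase, from 62.1 ± 5.31 to 231 ± 9.89 and then 514 ± 41.2 in the dry state. TRR1, thioredoxin reductase, and OYE2, an NADPH oxidoreductase, fell by 3.01 ± 0.11 and 2.14 ± 0.12 at 18 h. At 360 min against control 7 were higher and 7 lower (41.2% each, background 33.7% and 36.4%), and 1 and 15 under spike-in scaling.

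Of 7 Hog1 and Hot1 targets, 3 rose and 3 fell at 18 h (42.9% each, background 36.2% and 27.3%), and from 18 h to dry 4 rose (57.1%, background 22.1%) and none fell. STL1, a glycerol transporter, was below background in the control, at 12.4 ± 0.72, and read 79.8 ± 11.9 at 18 h, at least 2.692-fold above background. It read between 213 and 239.5 in the dry state and 63.5 ± 11.9 at 15 min, a fall of 1.83 ± 0.20 (adjusted p = 4.57e-06). GPP1, a glycerol-phosphate phosphatase, fell from 4191 ± 143 to 804 ± 59.3, rose to 2429 ± 119 when dry, and fell to 1390.1 ± 196 at 15 min. GRE2, a reductase, rose in both drying steps (1.32 ± 0.12 and 0.80 ± 0.12), and GPD1, the glycerol-phosphate dehydrogenase of osmotic adaptation, rose in the second (0.59 ± 0.16). At 15 min against dry all 7 of the measured targets fell (background 27.5%), with a median of -0.62 beside -0.18 for all probe sets. All 7 were also lower at 360 min than dry (background 40.7%), with a median of -2.02 beside -0.29. With median centring 3 and 4 of the 7 passed, and none rose under any of the 3 other scalings. HOT1 and HOG1 themselves fell at 15 min.

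All 5 Xbp1 targets fell at 18 h (background 27.3%) and all 5 were lower in the dry state than in the control (27.2%), under each of the 4 scalings. CLN3, the G1 cyclin that starts the cell cycle, read 1554 ± 242 in the control, 358 ± 43.2 at 18 h, 147 ± 8.09 when dry and 374 ± 18.8 at 360 min. CYS3, of cysteine synthesis, went from 3102 ± 84.4 to 183 ± 13.9 and 28.1 ± 15.4, the last of these near background. CLN1, a G1 cyclin, fell by 0.90 ± 0.20 and then by 1.45 ± 0.20, SMF2, a manganese transporter, by 0.70 ± 0.15 at 18 h, and CLB2, a mitotic cyclin, to below background, at least 2.746-fold. Between dry and 360 min 4 rose and SMF2 fell (80% and 20%, background 21.2% and 40.7%), and 1 rose and 3 fell under spike-in scaling. All 5 were lower than in the control at 360 min (background 36.4%). XBP1 was at its highest at 15 and 45 min, when CLN3 read 232 ± 15.0 and 250.2 ± 17.1; the list and XBP1 are set side by side here, and no effect of one on the other was measured.

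**Figure D4:**
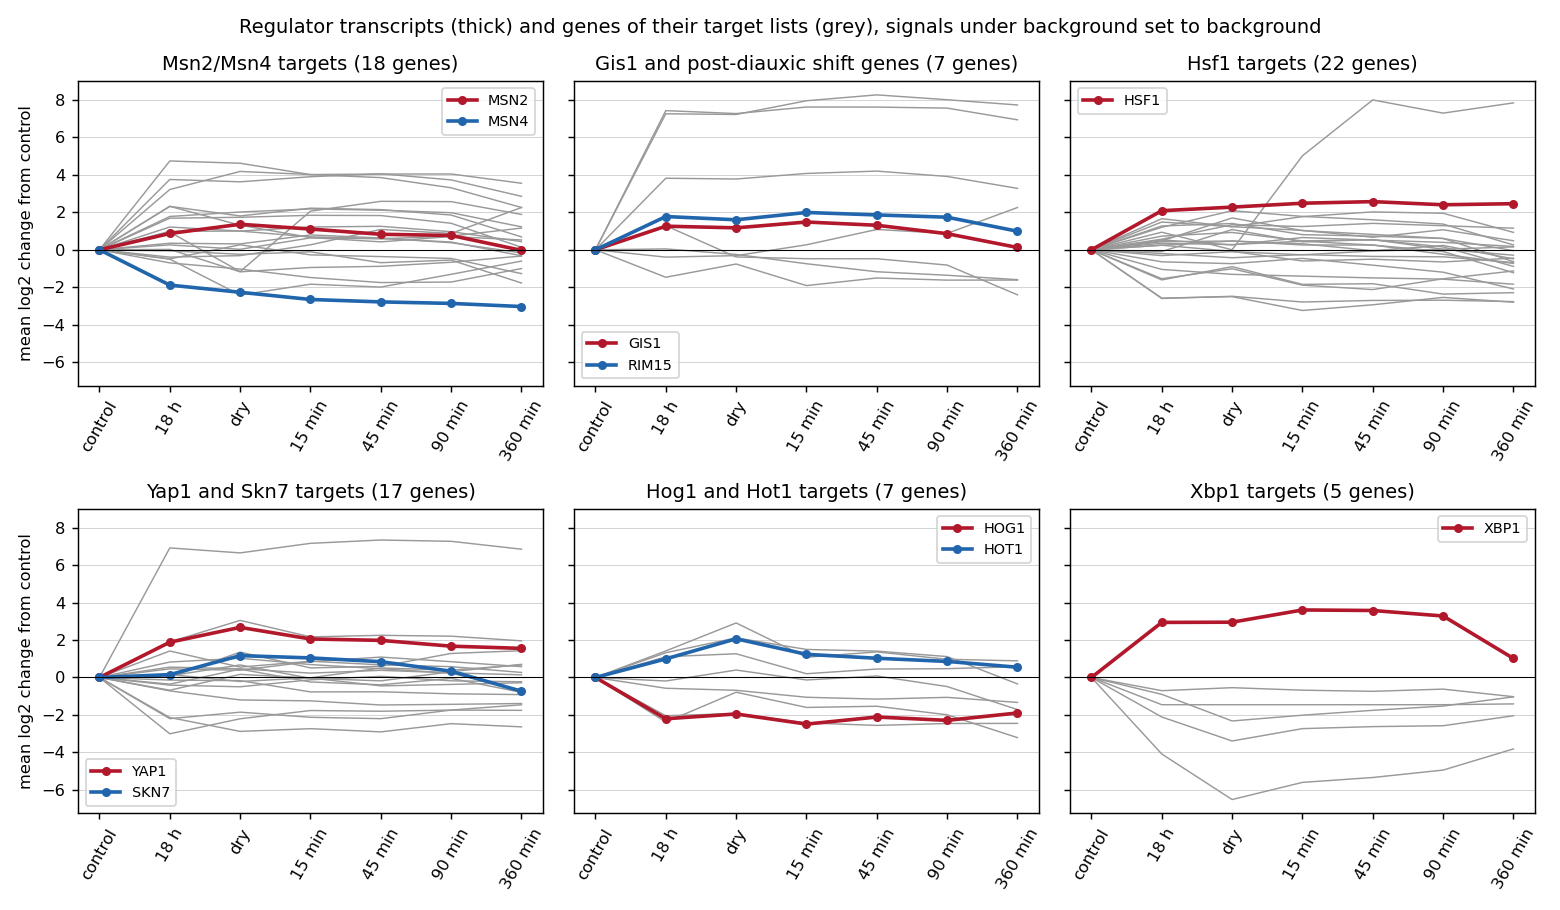
Mean log2 change from the control of the regulators (thick lines) and of the genes in their target lists (grey lines), with signals under 29.6 set to 29.6 first. Grey lines spread both ways around HSF1, YAP1 and SKN7, and all 5 lie below 0 around XBP1. The line that climbs past 4 in the Hsf1 panel is SSA1, whose probe set was not read. Under spike-in scaling the points at 18 h and in the dry state would be shifted down, and those of the last 4 time points by more.

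Likeness among the 10 was described by Pearson's r over the 7 time point means of log2 signal; the points share their libraries and scaling, and no p is given. XBP1 ran with RIM15 (r = 0.97) and GIS1 (0.94), MSN2 with GIS1 and HOT1 (both 0.91), YAP1 with HOT1 (0.92), and MSN4 with HOG1 (0.90). MSN4 ran against HSF1 (-0.97) and HOG1 against HSF1 (-0.96) and RIM15 (-0.95). In the pairs among MSN4, HOG1 and HSF1 the control lies far from the rest. HOG1 had a mean signal of 2192.4 there and 390.3 to 589.2 at the later time points. For MSN4 these were 1270.1 and 155.7 to 345.9, and for HSF1 332.2 and 1404.9 to 1964.7. How far these r values rest on the control was not tested. MSN2 and MSN4 had an r of -0.37, and SKN7 and HOG1 of -0.35.

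Such values are common in this time course: among 5227 genes, the regulator itself counted in, between 118 (SKN7) and 687 (MSN4) others had an r over 0.9 with a given regulator. The 3 genes most like XBP1 were COX13, a subunit of cytochrome c oxidase (r = 0.9978), POG1 (0.9955) and USV1, a zinc-finger transcription factor (0.9942). COX13 read 936 ± 74.2 in the control, 4209.7 ± 225 at 45 min and 1403 ± 126 at 360 min. RIM15 was most like YER079W (0.9969), GID11, a substrate receptor of the GID ubiquitin ligase (0.9962), and ATG2, an autophagy gene (0.9956). ATG2 read 286 ± 20.8 in the control, 1707 ± 234 at 15 min and 702 ± 74.3 at 360 min. GIS1 was most like BCY1, the inhibitory subunit of protein kinase A (0.9948), MLF3 (0.9923) and YBR225W (0.9919).

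MSN2 was most like RTG3, a retrograde signalling factor (0.9948), SDH5 (0.9946) and VPS54 (0.9924), and MSN4 like the tubulin cofactor gene RBL2 (0.9964), SEC66 (0.9961) and SUI2, a subunit of the initiation factor eIF2 (0.996). HSF1 was most like PKH1, a kinase of sphingolipid signalling (0.9964), GRE1 (0.9963) and PTI1 (0.9958). YAP1 was most like BDP1, a factor of RNA polymerase III (0.994), PRP5 (0.9937) and BYE1 (0.9935). SKN7 stood nearest to ENT5 (0.9906), the cohesin subunit SMC3 (0.9846) and RLM1, a factor of the cell wall response (0.9813). HOT1 was most like MON1 (0.9915), MUB1 (0.9867) and the mismatch repair gene PMS1 (0.9843), and HOG1 like TPA1 (0.9957), the guanylate kinase gene GUK1 (0.9954) and CIN2 (0.9962). CIN2 had a mean signal of 136 in the control and 26.0 to 35.5, about background, at the other 6 time points. How far its r rests on the control was not tested.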

How the data were processed

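The authors deposited one linear signal intensity per probe set and array, made, per the labels, by hybridizing cRNA, scanning and running Affymetrix GeneChip analysis software, which uses a Wilcoxon signed-rank test. A mixed model is also named per the labels, and its terms and its place before or after the deposited signals are not given in the sources used. Scan days were taken from the array run records.

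Of 9335 probe sets, 60 chip controls were left out. Values under 2.8, the 5th percentile of positive values, were set to 2.8 (4.86% of the values tested) before log2. Background, 29.6, is the 95th percentile over 19 chip controls (mouse genes and bacterial genes that were not spiked in). One linear model with a mean per time point was fitted with limma 3.58.1 in R 4.3.3 (residual degrees of freedom 14), with Benjamini-Hochberg adjustment over 9275 probe sets in each of 9 comparisons. Gene names came from the platform annotation, updated with RefSeq's table for assembly R64 (names only): 6504 had 1 gene symbol, all matched by gene ID, 328 had several and 2443 had none. A list gene stands as its brightest probe set. For a group with no array above background, only a lower bound of the fold is given. Fits were tested on simulated data.

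All 10 regulators are named. From the 12 gene lists (165 of 167 entries used here), the text mostly names genes among the 4 with the smallest adjusted p in a comparison, or among the called genes where 5 or fewer were called. Not every such gene is named. Examples at a second time point were chosen after their values were seen. The 3 most alike genes are those with the highest r among probe sets without a suffix and above background at some time point. The regulators and lists were chosen with earlier results of these data known. Between pairs of regulators, per-array differences were permuted over time points (two-sided by construction).

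Other settings tried were, for scaling, quantile normalization, median centring and spike-in scaling; for low values, no floor, a floor of 29.2 (20th percentile), a pseudocount of 50 and dropping the dimmest 25% of probe sets; for the model, fits of 2 groups alone, an intensity trend, and replicate number or scan day as a block; and the mean of a gene's probe sets, a minimum change of 2-fold, and each array left out once. Scan day as a random block was added after seeing the data. No 2 of 210 array pairs shared over 0.906% of their values. The number of arrays limits the precision.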

Additional observations from a re-analysis of the deposited data

How the results depend on the processing

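Of the 90 values (10 regulators in 9 comparisons), leaving out 1 array at a time kept the call 1876 times, lost it 12 times and added one 2 times, and no floor, log2(value + 50), leaving out the dimmest 25% of probe sets, the mean of a gene's probe sets and scan day as a random block kept all 90. The count of regulators changed between 45 and 90 min was 1 in the main fit, 2 under quantile normalization, with a floor at the 20th percentile and with an intensity trend, 3 under spike-in scaling, and 0 with only the 2 groups compared and for a change of at least 2-fold. Between 15 and 45 min it was 0, 1 with a floor at the 20th percentile or an intensity trend, and 0 to 1 when 1 array was left out (1 without dry replicate 1, HOG1). At 360 against 90 min it was 6, 10 under spike-in scaling and 2 for a change of at least 2-fold. For a change of at least 2-fold it was 2 from 18 h to dry (6 in the main fit), 0 at 15 min against dry (6) and 5 at 360 min against control (8). Directions of changes that passed in the main setting or the alternative turned under quantile normalization for MSN2 at 360 min against control (0.34), and under spike-in scaling for XBP1 (-0.07) and RIM15 (-0.33) at 15 min against dry, HSF1 (-0.90) and HOG1 (-0.57) at 360 against 90 min, HSF1 (-1.82) and HOG1 (-1.96) at 360 min against dry, and XBP1 (-1.30), RIM15 (-1.33), GIS1 (-2.19), YAP1 (-0.76) and HOT1 (-1.77) at 360 min against control. Changes that passed in neither also turned sign, 4 under median centring (MSN2 to 0.13 and SKN7 to 0.26 at 15 min against dry among them), 4 under spike-in scaling, 1 under quantile normalization, 2 with scan day as a block, 1 with it as a random block and 14 when 1 array was left out, with sizes up to 0.52. Spike-in scaling moved the median of all probe sets from -0.18 to -0.91 at 15 min against dry, from -0.03 to -0.35 at 90 against 45 min, from -0.02 to -0.98 at 360 against 90 min and from 0.11 to -0.18 at 18 h against control; the cause was not tested. The share of called probe sets that were higher was 57% at 18 h against control (44.3% under spike-in scaling), 56.5% from 18 h to dry (41.5% with median centring), 31.7% at 15 min against dry (51% quantile, 70.3% median, 1.3% spike-in), 64.1% at 45 against 15 min (75% quantile, 80% median), 39.6% at 90 against 45 min (1.8% spike-in), 41.2% at 360 against 90 min (53.1% median, 1.1% spike-in), 59.6% for dry against control (48.1% median, 48.7% spike-in), 34.3% at 360 min against dry (46.2%, 60% and 0.8%) and 48.1% at 360 min against control (5.2% spike-in). Called probe sets numbered 39 at 45 against 15 min (0 to 84 over the settings, 12 to 87 leaving out 1 array) and 508 at 90 against 45 min (2 with only the 2 groups compared, 186 with a random day block, 50 at 2-fold, as few as 242 leaving out 1 array). Other counts that moved by over 1.5 times were 3633 from 18 h to dry (2418 spike-in, 1321 at 2-fold), 3737 at 15 min against dry (5924, 1162), 3471 at 360 against 90 min (6019, 984, and 1911 with scan day as a block), 5894 at 18 h against control (3880 at 2-fold) and 5743 at 360 min against dry (3520 at 2-fold). Replicate numbers did not pair the samples (r of deviations -0.134 to 0.093 over 63 same-numbered pairs, none over 0.1), and with the replicate block all 90 calls stood and the counts of regulators were those of the main fit, while 21 probe sets passed at 45 against 15 min. Scan day could not be fitted as a block for 90 against 45 min, 360 min against dry and 360 min against control, where day and time point cannot be told apart. For the comparisons among control, 18 h and dry arrays the day term rests on 18 h replicate 2, the only array of its group scanned with the controls. For 360 against 90 min it rests on 90 min replicate 2, the only array of its day.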

Other observations

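The 8 meiosis and sporulation genes measured beside the regulators summed to signals of 284.2 to 346.2 in the control, 3096.4 to 3322.9 at 18 h of drying and 819.9 to 908.1 in the dry state. IME1, the master inducer of meiosis, carried most of this: it read 227 ± 20.9 (SD, n = 3) in the control, 2988 ± 80.9 at 18 h and 573 ± 34.2 in the dry state. Its changes were 3.72 ± 0.17 (limma adjusted p = 1.08e-11) and -2.38 ± 0.17 (adjusted p = 3.11e-08). IME2, the meiotic kinase, rose by 1.65 ± 0.19 at 18 h (limma). Of the 8 genes 5 were called higher in the dry state than in the control (62.5%, background 40.1%), among them SMK1, which was below background in both, and with signals under background set to it the list's median was 0.25 beside 0.24 for all probe sets without that step. SPS4 and SPR3, which are induced late in sporulation, were at or below background on all 3 arrays of each of the 7 time points.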
